A study of Mus musculus with 6 samples.

Results

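The 9 genes described here were selected by their difference between PKM2ΔMAC and PKM2FL/FL macrophages and by their position in the first 36 Mb of mouse chromosome 10. They were Ppp1r14c, Hebp2, Gm2539, H60b, Gm26740, Hmgb1-ps8, C920009B18Rik, Eya4 and Amd2, which are 9 of the 23935 gene symbols in the deposited tables. The tables held 219 genes of this stretch, 144 of them had enough counts to be tested, and the 9 genes were exactly those with an adjusted p under 0.05 among the 144. Of all 16516 genes tested in the series, 0.412% were called at that threshold, 0.285% as higher and 0.127% as lower in PKM2ΔMAC. Since the genotype contrast chose the 9 genes, their genotype differences are given as a description, without a test.

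The cells were bone marrow-derived macrophages (BMDMs), obtained by culturing marrow of the femur and tibia with the growth factor M-CSF for 7 days. Cells of 3 PKM2ΔMAC and 3 PKM2FL/FL mice were then primed for 16 h with 10 ng/mL LPS, a component of bacterial outer membranes, and 25 ng/mL IFN-γ, and the comparison asked how loss of pyruvate kinase M2 alters the primed cells. Both groups carried the floxed PKM2 allele and received the same priming, and PKM2ΔMAC mice carried in addition LysM-Cre, in which the lysozyme gene Lyz2 drives the Cre recombinase in myeloid cells. Controls were described as littermates, the libraries were numbered by mouse, and the age of the mice used for these cultures was not given.

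The 6 libraries held between 49957449 and 54524651 counts, so that 3 counts equalled between 0.0550 and 0.0601 CPM, the count scaled to a common library size. The targeted gene Pkm, which encodes both pyruvate kinase M1 and M2, had 91540, 88260 and 86644 counts in PKM2FL/FL and 52385, 66569 and 49880 in PKM2ΔMAC (log2 fold change -0.68 ± 0.08 SE, edgeR adjusted p = 0.00913). That call was lost when any PKM2FL/FL library was left out (adjusted p between 0.0754 and 0.0993), with a log2 fold change between -0.68 and -0.67. Lyz2, which lies on chromosome 10 as well, was between 907997 and 951087 counts in PKM2FL/FL and between 1334 and 1686 in PKM2ΔMAC. The 7 macrophage markers summed to between 6745 and 7001 CPM in PKM2FL/FL and between 6719 and 7740 CPM in PKM2ΔMAC, with 3 of 7 higher on average and 1 called, Itgam (log2 fold change 0.43, edgeR adjusted p = 0.00272). The 8 neutrophil markers summed to between 20.3 and 48.8 CPM in PKM2FL/FL and between 90.1 and 170.0 CPM in PKM2ΔMAC, with 8 of 8 higher on average and 0 called. The 6 stromal markers, which include collagens, summed to between 5748 and 6310 CPM and between 5467 and 6988 CPM, close to the macrophage sum. In each of these lists no marker was at 3 counts or fewer in every library, and the part of these cells in the levels below was not tested. In bulk RNA, fewer cells of a type and less RNA per cell cannot be told apart. When PKM2ΔMAC replicate 2 was left out, the number of genes called rose from 68 to 299.

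H60b belongs to the ligands of NKG2D, an activating receptor of natural killer and T cells that recognizes proteins which stressed, infected or transformed cells place on their surface. In the mouse, H60b lies beside Raet1 ligand genes on chromosome 10, interspersed with pseudogenes, while H60c lies apart on the same chromosome. Amd2 encodes an S-adenosylmethionine decarboxylase, the enzyme that supplies the aminopropyl group for spermidine and spermine, and is a near copy of Amd1. Ppp1r14c is an inhibitor of protein phosphatase 1 that acts once phosphorylated, Hebp2 is a heme-binding protein of the SOUL family, and Eya4 is a transcriptional coactivator and phosphatase that works with DNA-binding partners. The other members do not code for protein in the annotation, since Gm2539 and C920009B18Rik are transcribed unprocessed pseudogenes, Hmgb1-ps8 is a processed pseudogene of the chromatin protein gene Hmgb1, and Gm26740 is an antisense RNA gene.

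Several members resemble other genes, so that reads could be assigned to either, and the stretches below show how many bases separate 4 of them from a relative. Each stretch has 90 bases, was taken from the transcripts of GENCODE M21 (mouse build GRCm38) as the gap-free window with the most differences, and was kept to coding sequence where a gene has any. Capitals mark the bases that differ between the members of a pair.
Amd2: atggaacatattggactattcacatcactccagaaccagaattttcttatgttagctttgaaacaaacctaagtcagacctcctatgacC
Amd1: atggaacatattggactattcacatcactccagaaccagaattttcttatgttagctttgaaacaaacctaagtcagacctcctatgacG
Hmgb1-ps8: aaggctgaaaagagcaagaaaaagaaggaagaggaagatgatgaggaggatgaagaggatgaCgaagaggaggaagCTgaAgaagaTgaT
Hmgb1: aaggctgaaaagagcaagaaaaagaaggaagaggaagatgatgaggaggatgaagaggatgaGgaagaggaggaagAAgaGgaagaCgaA
H60b: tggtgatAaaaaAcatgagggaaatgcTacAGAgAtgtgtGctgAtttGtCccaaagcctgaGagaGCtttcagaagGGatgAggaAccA
H60c: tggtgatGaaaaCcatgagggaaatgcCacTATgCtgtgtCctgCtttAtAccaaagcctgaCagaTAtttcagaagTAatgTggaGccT
Gm2539: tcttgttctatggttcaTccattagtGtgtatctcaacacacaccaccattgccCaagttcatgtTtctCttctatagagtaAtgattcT
Gm19791: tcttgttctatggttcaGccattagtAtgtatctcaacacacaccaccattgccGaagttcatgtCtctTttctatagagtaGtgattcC

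Within these windows Amd2 and Amd1 differed at 1 base, Hmgb1-ps8 and Hmgb1 at 6, Gm2539 and Gm19791 at 7, and H60b and H60c at 19. The windows lie on the minus strand at chr10:35710764-35710853 for Amd2, on the minus strand at chr10:40290186-40290379 for Amd1 with an intron between, on the minus strand at chr10:22262748-22262837 for Hmgb1-ps8 and on the minus strand at chr5:149048767-149048856 for Hmgb1. Those of H60b (chr10:22285779-22285868), Gm2539 (chr10:22103163-22103252) and Gm19791 (chr10:22113180-22113269) lie on the plus strand, and that of H60c (chr10:3260243-3260332) on the minus strand. Over whole alignments, Amd2 matched Amd1 at 99.6% of 3202 bases, Hmgb1-ps8 matched Hmgb1 at 95.8% of 623 bases, a short transcript of Gm2539 matched Gm19791 at 96.5% of 746 bases, and H60b matched H60c at 89.3% of 439 bases. Whether the authors counted reads that fit more than 1 place, and whether they used the strand, was not stated, so the split of reads within these pairs is uncertain.

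Of the 9 genes, 4 were higher in PKM2ΔMAC (Ppp1r14c, Gm2539, H60b and Amd2) and 5 were lower (Hebp2, Gm26740, Hmgb1-ps8, C920009B18Rik and Eya4). In all 9 the libraries of the genotypes did not overlap, a pattern that 17.2% of all tested genes had (8.92% with PKM2ΔMAC higher and 8.32% with it lower). By size, 7 of the 9 had a log2 fold change of at least 1 in either direction. The plot of levels by library shows that the differences ranged from a shift of similar size in every mouse to genes near 0 counts in 1 genotype.

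**Figure D1:**
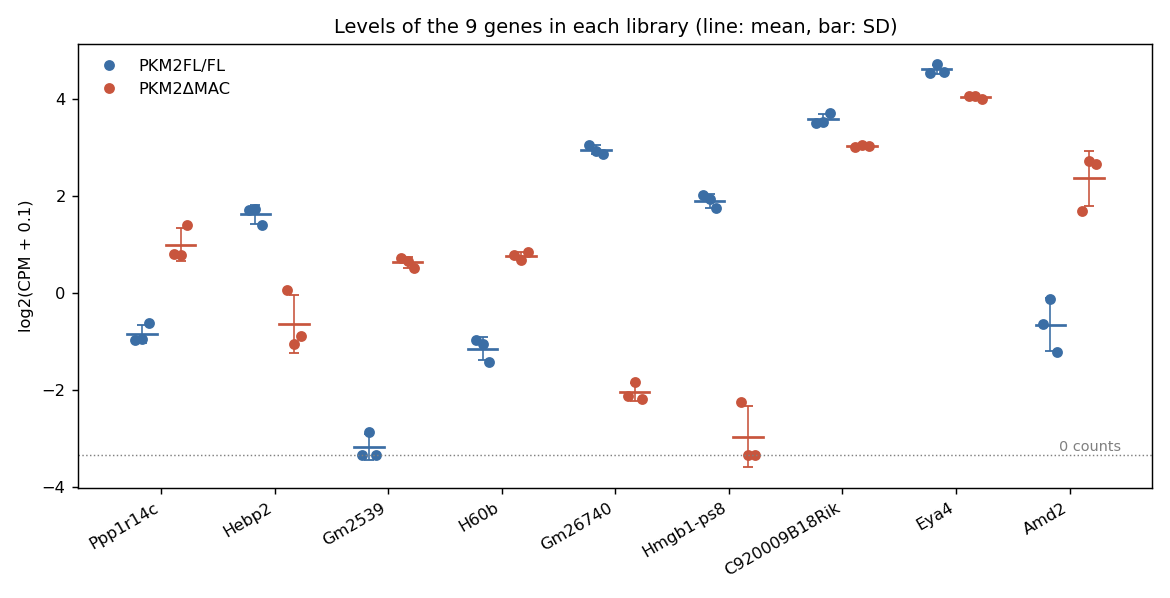
Level of each of the 9 genes as log2(CPM + 0.1) in the 3 PKM2FL/FL (blue) and 3 PKM2ΔMAC (red) libraries, with the mean as a line and the SD as a bar; the dotted line marks 0 counts. Gm2539 is at or near the dotted line in PKM2FL/FL and Hmgb1-ps8 in PKM2ΔMAC, while Eya4 and C920009B18Rik are well expressed in both genotypes.

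H60b (chr10:22158586-22288849, plus strand) had 22, 20 and 14 counts in PKM2FL/FL and 86, 83 and 85 counts in PKM2ΔMAC. The 3 PKM2ΔMAC libraries lay close together and all above the controls. In CPM this was 0.357 ± 0.0722 (SD, n = 3) against 1.61 ± 0.101 (SD, n = 3), a ratio of 4.52 and a log2 fold change of 2.17 ± 0.26 (SE). H60b was therefore a low transcript in both genotypes, at 1.03 ± 0.210 TPM, a unit that also corrects for gene length, and 4.90 ± 0.170 TPM. Its first exon shares 133 bases, 11.0% of its exon length, with the overlapping ligand gene Raet1e on the same strand.

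Raet1e starts beside H60b, runs past its end and did not follow it. It had 79, 71 and 78 counts in PKM2FL/FL and 27, 88 and 11 counts in PKM2ΔMAC, and the groups overlapped (log2 fold change -0.90 ± 0.61 SE, edgeR adjusted p = 0.702; exact permutation p = 0.4, two-sided). The high PKM2ΔMAC value belonged to replicate 2, and without that library the log2 fold change was -1.98 (adjusted p = 0.0205). Raet1d, another ligand gene of the locus, had 30, 43 and 78 counts against 45, 52 and 17 (log2 fold change -0.44, adjusted p = 0.822, and -0.70 without PKM2ΔMAC replicate 2). Ulbp1, a ligand gene of chromosome 10 outside the locus, was the best expressed ligand at 12.0 TPM on average in PKM2FL/FL and 12.2 TPM in PKM2ΔMAC (log2 fold change -0.04, adjusted p = 0.937). H60a, H60c, Raet1a, Raet1b and Raet1c were not analysed here. Of the receptor side, Klrk1, which encodes NKG2D, had between 4 and 14 counts in every library, and its adaptor genes Hcst (adjusted p = 0.535) and Tyrobp (adjusted p = 0.986) were not called. Thus 0 of the 6 tested genes of the NKG2D list passed the adjusted threshold, 0 had an unadjusted p under 0.05 (9.83% of all tested genes did), and DESeq2 called 0. The median log2 fold change of the list was -0.15, against -0.03 over all 66 tested related genes of the families and pathways below. Of these 66, 0 were called, 13 (19.7%, against 9.83% of all tested genes) had an unadjusted p under 0.05, and DESeq2 called 1.

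Gm26740 (chr10:22187013-22302835, minus strand) is read against H60b and overlaps it over most of its length. It had 439, 394 and 369 counts in PKM2FL/FL and 7, 10 and 6 counts in PKM2ΔMAC. Every PKM2ΔMAC library was thus far below every control. The level was 7.69 ± 0.488 CPM against 0.145 ± 0.0326 CPM, which is 1.89% of the control level (log2 fold change -5.70 ± 0.20 SE). Although the genes overlap, their exons share 0 bases, so no read lying within an exon could count for both.

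Hmgb1-ps8 (chr10:22262742-22263367, minus strand) lies in an intron of both H60b and Gm26740, on the strand of Gm26740 and 876 bases from its nearest exon. It had 211, 195 and 166 counts in PKM2FL/FL and 6, 0 and 0 counts in PKM2ΔMAC. PKM2ΔMAC replicate 1 held all 6 counts of its genotype. The ratio of the CPM of PKM2FL/FL to those of PKM2ΔMAC, taken from summed counts, was 94.2 with an exact 95% interval from 43.0 to 257.8 that covers counting error only. Without PKM2ΔMAC replicate 1 both remaining libraries were at 0, and the level was at least 62.6-fold lower than in PKM2FL/FL, taking 3 counts in a library as the floor.

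Gm2539 (chr10:22074237-22103313, plus strand) showed the opposite pattern. It had 0, 2 and 0 counts in PKM2FL/FL and 83, 82 and 66 counts in PKM2ΔMAC. The controls were at or under the floor of 3 counts in each library, and the PKM2ΔMAC mean of 1.46 CPM (libraries between 1.33 and 1.56 CPM) was at least 25.6-fold higher than that floor. Its neighbour Gm19791, too low to be tested, had 1, 2 and 4 counts against 12, 9 and 9 (exact permutation p = 0.1, two-sided, the smallest that 3 against 3 can give). Gm19791 matches the whole of a 746-base transcript of Gm2539. On a longer transcript of 2411 bases the match covered 16.5% (398 aligned bases). A further similar gene, Olfr369-ps1 on chromosome 9, matched 398 bases of that longer transcript at 91.5% identity. Olfr369-ps1 had 0, 0 and 0 counts against 17, 15 and 18 (at least 5.59-fold higher, edgeR adjusted p = 0.0579). Gm2539 was chosen for its difference, and these 2 relatives were named after their values were seen. Reads could be assigned to any of the 3, so their counts may not be independent.

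C920009B18Rik (chr10:22306702-22321765, plus strand) starts 3867 bases from the start of Gm26740 and is transcribed away from it. It had 605, 598 and 660 counts in PKM2FL/FL and 425, 452 and 402 counts in PKM2ΔMAC. The groups did not overlap, but the difference was small beside that of Gm26740. The level was 11.9 ± 0.912 CPM against 8.11 ± 0.111 CPM, or 67.9% of the control level (log2 fold change -0.56 ± 0.09 SE). Among the members, C920009B18Rik lay nearest to the threshold by which they were chosen, so its place there describes the choice and is not a test.

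The 5 genes from Gm2539 to C920009B18Rik occupied a window of 248 kb (chr10:22074237-22321765), which wholly contains 12 genes of the tables, 8 of them tested. In the map of the locus, genes with higher and with lower levels in PKM2ΔMAC lie next to one another and on both strands. Gm26581, a long noncoding RNA gene inside H60b, had 15, 34 and 14 counts in PKM2FL/FL and 0, 0 and 0 in PKM2ΔMAC, which is at least 6.99-fold lower (edgeR adjusted p = 0.0840, and 0.0256 without PKM2ΔMAC replicate 2). Gm5421, a processed pseudogene 21.7 kb beyond C920009B18Rik, had 168, 132 and 160 counts against 59, 50 and 77 (log2 fold change -1.31, adjusted p = 0.0715, and 0.0279 or 0.0356 without PKM2ΔMAC replicate 2 or 3). Gm4895, a processed pseudogene just before H60b, had 18, 14 and 14 counts against 1, 7 and 11, without overlap (log2 fold change -1.26, adjusted p = 0.575). Gm26528, a short pseudogene in an intron of H60b, had 0, 0 and 0 counts against 10, 2 and 1 and was too low to be tested. Towards Sgk1, a kinase gene 74.3 kb before Gm2539 (log2 fold change -0.18, adjusted p = 0.771), and at E030030I06Rik, 9.74 kb after it (log2 fold change -0.39, adjusted p = 0.720), the genotypes overlapped. Without PKM2ΔMAC replicate 2 these differences were -0.05 and -0.14. Gm1972 and Raet1e also overlap members of the locus, and Gm1972 had at most 6 counts in any library.

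**Figure D2:**
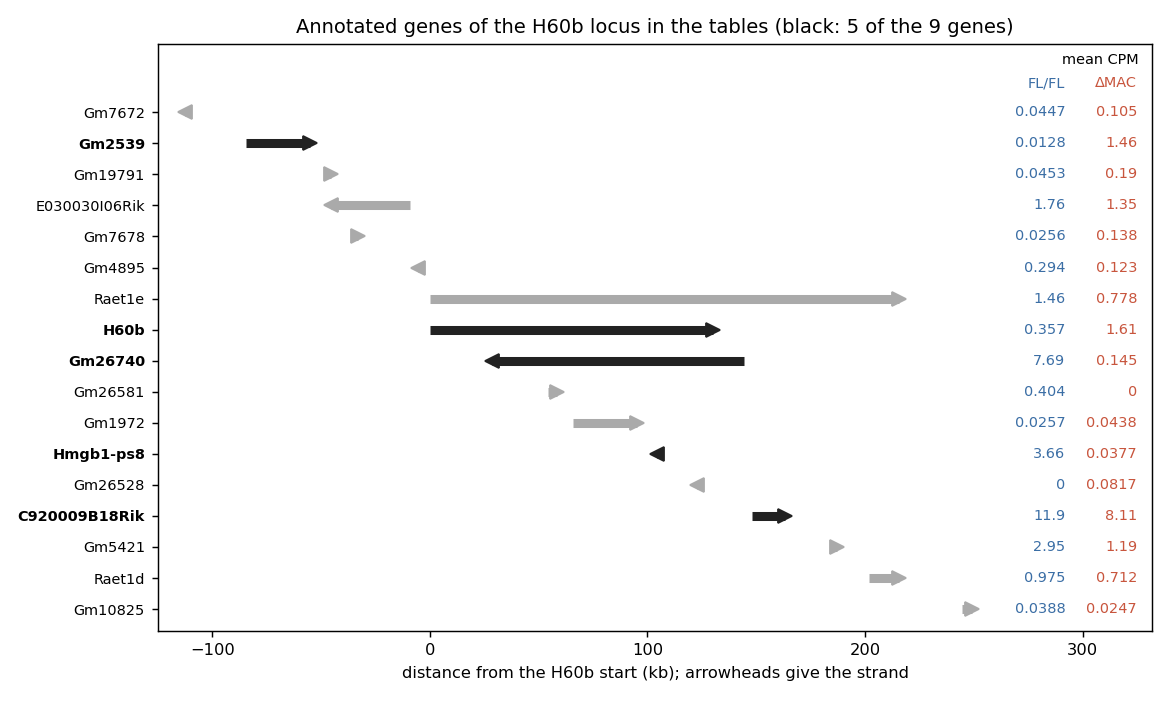
Annotated genes of the H60b locus that are in the tables, drawn by their distance in kb from the H60b start, with arrowheads for the strand and the mean CPM of each genotype at the right (n = 3 each). The members are black: Gm2539 and H60b are higher in PKM2ΔMAC, while Gm26740, Hmgb1-ps8 and C920009B18Rik are lower.

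Upstream sequences were taken from RefSeq on GRCm38.p6, from 250 bases before to 50 after an annotated start, for 7 of the 9 genes. The start used is 3684 bases from the GENCODE start for Gm2539 and 843 bases for Eya4, and within 93 bases for the other 5. H60b and Hmgb1-ps8 had no entry. Of these, 3 are shown: those of Gm26740 and C920009B18Rik because these genes start near each other and differ in the size of their change, and that of Ppp1r14c because it shares a motif with C920009B18Rik. Capitals mark matches to any of the motifs named after them, and the sequence of Gm26740 holds no match.
Gm26740: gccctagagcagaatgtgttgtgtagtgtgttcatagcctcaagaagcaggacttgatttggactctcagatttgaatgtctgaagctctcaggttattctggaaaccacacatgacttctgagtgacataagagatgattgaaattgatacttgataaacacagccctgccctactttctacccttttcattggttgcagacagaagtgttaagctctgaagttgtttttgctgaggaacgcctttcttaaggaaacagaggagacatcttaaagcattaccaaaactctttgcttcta
C920009B18Rik: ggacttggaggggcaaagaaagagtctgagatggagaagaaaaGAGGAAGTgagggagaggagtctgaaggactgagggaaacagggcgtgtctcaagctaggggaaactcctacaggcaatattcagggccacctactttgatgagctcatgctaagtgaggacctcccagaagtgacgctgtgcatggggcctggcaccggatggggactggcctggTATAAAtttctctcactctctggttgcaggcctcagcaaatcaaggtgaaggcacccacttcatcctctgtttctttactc
Ppp1r14c: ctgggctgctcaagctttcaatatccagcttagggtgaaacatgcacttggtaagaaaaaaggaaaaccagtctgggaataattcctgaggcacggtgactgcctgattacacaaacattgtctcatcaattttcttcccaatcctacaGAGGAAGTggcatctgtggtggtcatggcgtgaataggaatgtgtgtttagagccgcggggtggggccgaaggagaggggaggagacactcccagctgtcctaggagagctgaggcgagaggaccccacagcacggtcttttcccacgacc

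The sequences are chr10:22302789-22303088 (minus strand) for Gm26740, chr10:22306532-22306831 (plus strand) for C920009B18Rik and chr10:3365900-3366199 (plus strand) for Ppp1r14c. Both strands were searched for the TATA box (TATAAA), the GC box (GGGCGG), and the core letters of sites of PU.1 (GAGGAAGT), AP-1 (TGANTCA) and interferon-γ activated sites or GAS (TTCNNNGAA), where N stands for any base. The PU.1 letters were in 2 of the 7 sequences, those of Ppp1r14c and C920009B18Rik, and in 3.20% of all 32851 RefSeq promoters of this length. The TATA box was in 1 of 7 (C920009B18Rik) and in 13.6% of all promoters. The GC box was in 2 of 7 (Hebp2 and Eya4) and in 35.7% of all, and the GAS letters in 1 of 7 (Gm2539) and in 8.30% of all. No member's sequence held the AP-1 letters, which 7.81% of all promoters did. The genes with PU.1 letters differed in opposite directions between the genotypes. The Gm26740 sequence had 41.0% G and C bases and 1 CpG and that of Eya4 had 69.3% and 36, against medians of 52.7% and 7 over all promoters.

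Amd2 (chr10:35708675-35711892, minus strand) had 29, 43 and 17 counts in PKM2FL/FL and 168, 360 and 309 counts in PKM2ΔMAC. Both groups spread widely, from 17 to 43 and from 168 to 360 counts, and did not overlap. The level was 0.568 ± 0.247 CPM against 5.32 ± 1.87 CPM, a ratio of 9.35 (log2 fold change 3.22 ± 0.40 SE, and 3.04 without PKM2ΔMAC replicate 2). Amd1, from which Amd2 differs by 10 mismatches and 2 gaps over 3202 bases, had 3379, 3039 and 2989 counts in PKM2FL/FL and 3504, 3814 and 3096 in PKM2ΔMAC. The genotypes overlapped for Amd1 (log2 fold change 0.13 ± 0.05 SE, edgeR adjusted p = 0.468; exact permutation p = 0.2, two-sided). Amd2 made up 0.851%, 1.40% and 0.566% of the counts of both genes in the controls and 4.58%, 8.62% and 9.07% in PKM2ΔMAC. The partial copies Amd-ps4 and Amd-ps1 were low in both genotypes, with between 9 and 12 counts and between 0 and 2 counts in each library. Amd-ps3, the closest partial copy (99.8% over 1005 bases), had 10, 12 and 5 counts in PKM2FL/FL and 5, 6 and 6 in PKM2ΔMAC.

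Of the 21 tested genes of polyamine synthesis and turnover 0 were called, 5 (23.8%, against 9.83% of all tested genes) had an unadjusted p under 0.05, the libraries of 7 (33.3%, against 17.2%) did not overlap, and DESeq2 called 0, with a median log2 fold change of 0.00 against 0.00 over all genes. Odc1, the ornithine decarboxylase that opens the pathway, was at 51.2 ± 1.39 CPM against 52.7 ± 2.01 CPM (log2 fold change 0.04, adjusted p = 0.833). Sms, the spermine synthase, had the smallest adjusted p of the list (log2 fold change 0.21, adjusted p = 0.218).

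Hmgb1, the parent gene of Hmgb1-ps8, had 3380, 3206 and 3219 counts in PKM2FL/FL and 3581, 3929 and 3633 in PKM2ΔMAC, without overlap (log2 fold change 0.17 ± 0.04 SE, edgeR adjusted p = 0.225; exact permutation p = 0.1, two-sided). The pseudogene made up 5.88%, 5.73% and 4.90% of the counts of both in the controls and 0.167%, 0% and 0% in PKM2ΔMAC. The related pseudogenes Gm15387 (log2 fold change 0.01, adjusted p = 0.994), Gm21596 (-0.11, adjusted p = 0.955) and Gm5518 (0.28, adjusted p = 0.484), between 95.7% and 96.0% identical to Hmgb1-ps8, were not called. Of the HMGB genes, Hmgb2 (log2 fold change 0.42, adjusted p = 0.373) and Hmgb3 (0.71, adjusted p = 0.201) were also not called by edgeR, although 3 of 3 (100%, against 9.83% of all tested genes) had an unadjusted p under 0.05 and the libraries of 3 of 3 (against 17.2%) did not overlap, and DESeq2 called 1, Hmgb3 (adjusted p = 0.0313).

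**Figure D3:**
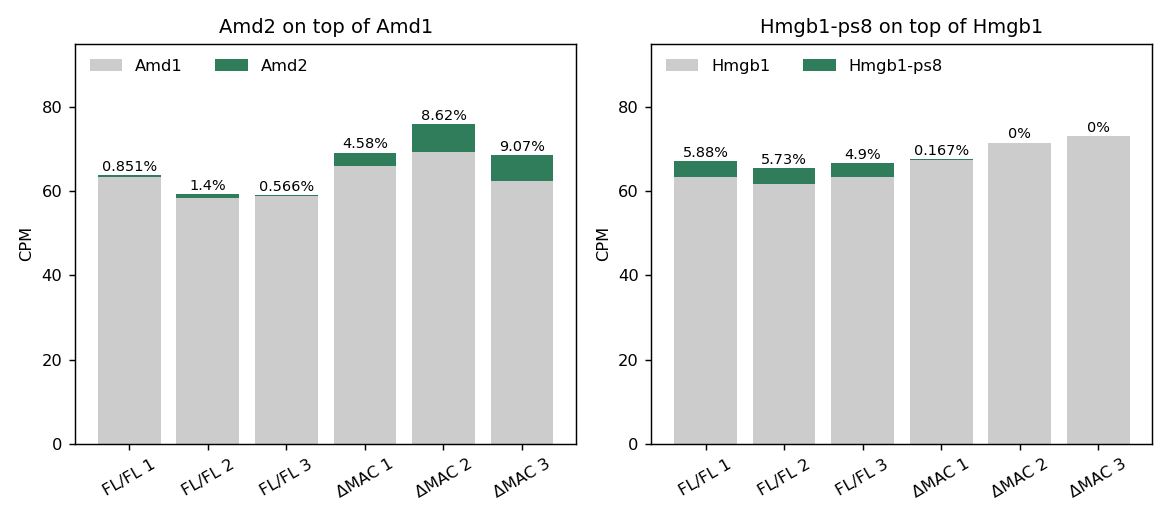
CPM of Amd1 with Amd2 stacked on it (left) and of Hmgb1 with Hmgb1-ps8 stacked on it (right) in each library; the label over each bar is the percentage of both genes' counts assigned to the member. The Amd2 share is higher and the Hmgb1-ps8 share lower in every PKM2ΔMAC library, while the gray bars of Amd1 and Hmgb1 differ little.

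Ppp1r14c (chr10:3366057-3464975, plus strand), the first tested gene of the chromosome, had 22, 22 and 28 counts in PKM2FL/FL and 88, 90 and 126 counts in PKM2ΔMAC. All PKM2ΔMAC libraries were higher, with replicate 3 the highest. The level was 0.462 ± 0.0773 CPM against 1.95 ± 0.514 CPM, a ratio of 4.21 (log2 fold change 2.07 ± 0.28 SE). Gm14057 on chromosome 2 matches 495 bases of Ppp1r14c at 91.5% identity and had 29, 28 and 21 counts against 19, 13 and 19, without overlap (log2 fold change -0.61, adjusted p = 0.630). An antisense gene, Gm26752, which was not analysed here, shares 765 bases or 29.2% of the exon length of Ppp1r14c, and reads of the pair cannot be told apart where strand was not used. Of its paralogs, Ppp1r14a had 133, 165 and 155 counts against 74, 188 and 51 (log2 fold change -0.57, adjusted p = 0.739) and Ppp1r14b was even (log2 fold change -0.05, adjusted p = 0.848). Without PKM2ΔMAC replicate 2, Ppp1r14a fell by 1.26 on the log2 scale (adjusted p = 0.0200). Of the 16 tested genes of phosphatase 1 inhibition and myosin phosphatase 0 were called, and DESeq2 called 0 (median log2 fold change -0.05). An unadjusted p under 0.05 was found for 2 of the 16 (12.5%, against 9.83% of all tested genes). The next tested gene along the chromosome was Plekhg1, with 815, 645 and 712 counts against 561, 91 and 457 (log2 fold change -0.96, adjusted p = 0.706), where PKM2ΔMAC replicate 2 was the low library (-0.49 without it, adjusted p = 0.0513).

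Hebp2 (chr10:18539498-18546076, minus strand) had 171, 169 and 130 counts in PKM2FL/FL and 50, 21 and 22 counts in PKM2ΔMAC. PKM2ΔMAC replicate 1 was the highest of its group and still below every control. The level was 3.00 ± 0.387 CPM against 0.589 ± 0.307 CPM, or 19.6% of the control level (log2 fold change -2.34 ± 0.33 SE, and -2.86 without PKM2ΔMAC replicate 1). Its paralog Hebp1 had 1014, 816 and 953 counts against 877, 588 and 861 (log2 fold change -0.26, adjusted p = 0.720, and -0.07 without PKM2ΔMAC replicate 2). Of the 12 tested genes of heme binding, transport and breakdown 0 were called, and DESeq2 called 0 (median log2 fold change -0.04). An unadjusted p under 0.05 was found for 2 of the 12 (16.7%, against 9.83% of all tested genes). Hmox1, the inducible heme oxygenase, was at 316 ± 9.44 CPM and 343 ± 31.9 CPM (log2 fold change 0.12, adjusted p = 0.616). The adjoining genes Nhsl1, 5.61 kb away (log2 fold change 0.08, adjusted p = 0.947), and Arfgef3, 35.8 kb away (0.13, adjusted p = 0.747), overlapped between the genotypes.

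Eya4 (chr10:23102963-23350786, minus strand) had 1247, 1369 and 1201 counts in PKM2FL/FL and 882, 914 and 797 counts in PKM2ΔMAC. It was the member with the most counts, and its groups were tight and apart. The level was 24.4 ± 1.65 CPM against 16.4 ± 0.332 CPM, or 67.3% of the control level (log2 fold change -0.57 ± 0.07 SE). Of its paralogs, Eya2 had 993, 1145 and 1039 counts against 688, 976 and 465, without overlap (log2 fold change -0.60 ± 0.23 SE, edgeR adjusted p = 0.466; exact permutation p = 0.1, two-sided), and without PKM2ΔMAC replicate 2 it fell by 0.86 (adjusted p = 0.0225). Eya1 (log2 fold change -0.04, adjusted p = 0.955) and Eya3 (-0.08, adjusted p = 0.706) were not called. Of the 8 tested genes of the list of EYA proteins and their partners 0 were called, and DESeq2 called 0. An unadjusted p under 0.05 was found for 1 of the 8, Eya2 (12.5%, against 9.83% of all tested genes). The nearest tested genes were Tbpl1 at 371 kb (log2 fold change 0.18, adjusted p = 0.424) and Rps12 at 434 kb (-0.05, adjusted p = 0.790).

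Per unit of length, the order of the members differed between the genotypes. Since they were chosen for their genotype difference, the change of order follows from the choice and is given as a description. In PKM2FL/FL the levels fell from Hmgb1-ps8 (20.5 ± 1.98 TPM) and Gm26740 (15.6 ± 0.928 TPM) through Eya4 (9.09 ± 0.724 TPM), C920009B18Rik (6.37 ± 0.474 TPM) and Hebp2 (2.68 ± 0.357 TPM) to H60b (1.03 ± 0.210 TPM), Amd2 (0.620 ± 0.277 TPM), Ppp1r14c (0.618 ± 0.101 TPM) and Gm2539 (0.0146 ± 0.0252 TPM). The libraries of H60b and Amd2 overlapped in this order, as did those of Amd2 and Ppp1r14c. In PKM2ΔMAC the order was Eya4 (6.43 ± 0.303 TPM), Amd2 (6.10 ± 2.23 TPM), H60b (4.90 ± 0.170 TPM), C920009B18Rik (4.55 ± 0.202 TPM), Ppp1r14c (2.73 ± 0.665 TPM), Gm2539 (1.72 ± 0.166 TPM), Hebp2 (0.549 ± 0.278 TPM), Gm26740 (0.311 ± 0.0807 TPM) and Hmgb1-ps8 (0.218 ± 0.378 TPM). Amd2 overlapped Eya4, H60b and C920009B18Rik, H60b overlapped C920009B18Rik, and the last 3 overlapped one another. By mean, the 2 highest members of the controls were the 2 lowest of PKM2ΔMAC, where Hebp2 overlapped both, and C920009B18Rik ranked 4 in both genotypes.

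Among the other 135 tested genes of the first 36 Mb 0 were called by edgeR, 22 (16.3%) had an unadjusted p under 0.05 against 9.83% of all tested genes, and DESeq2 called 5. Their median log2 fold change was -0.04 and their median size of change 0.13, against 0.09 over all genes. On the rest of the chromosome up to Lyz2, 0 of 488 tested genes were called and 41 (8.40%) had an unadjusted p under 0.05. DESeq2 called 5 of these 488 genes, against 5 of the 135 above and 280 over the whole series. It was run on all 23935 symbols with its own filter on low counts, so the 280 are not a share of the genes tested by edgeR. The members lie between 81.6 Mb (Amd2) and 113.8 Mb (Ppp1r14c) from Lyz2. Whether position bears on these levels was not tested.

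Just outside the threshold stood Ifngr1, the IFN-γ receptor chain, with 12104, 12438 and 12410 counts in PKM2FL/FL and 10599, 9330 and 8320 in PKM2ΔMAC (log2 fold change -0.40, adjusted p = 0.0715), together with Gm5421 and Gm26581. Ifngr1 was called without PKM2ΔMAC replicate 1 (-0.49, adjusted p = 0.00985) and with no filter on low counts (adjusted p = 0.0269). The folate enzyme gene Mthfd1l had 976, 981 and 862 counts against 1230, 1511 and 1098 (log2 fold change 0.43, adjusted p = 0.147), and the actin regulator gene Phactr2 3748, 3399 and 3666 against 2843, 1987 and 2014 (-0.67, adjusted p = 0.226, and 0.00310 without PKM2ΔMAC replicate 1). These were the 5 genes that DESeq2 called. Adgb, which encodes androglobin, had 77, 83 and 76 counts against 25, 5 and 0 (log2 fold change -2.98, adjusted p = 0.332, and -4.92 with adjusted p = 0.0348 without PKM2ΔMAC replicate 1), and its widely spread PKM2ΔMAC libraries did not overlap the controls. The nearest tested neighbours of Amd2 were 810 kb and 1263 kb away, Gm8834 (log2 fold change -0.33, adjusted p = 0.789) and Hdac2 (0.10, adjusted p = 0.481). Of the 12 nearest tested neighbours of the members, 0 were called, 4 (33.3%, against 9.83% of all tested genes) had an unadjusted p under 0.05, and the libraries of 5 (41.7%, against 17.2%) did not overlap.

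**Figure D4:**
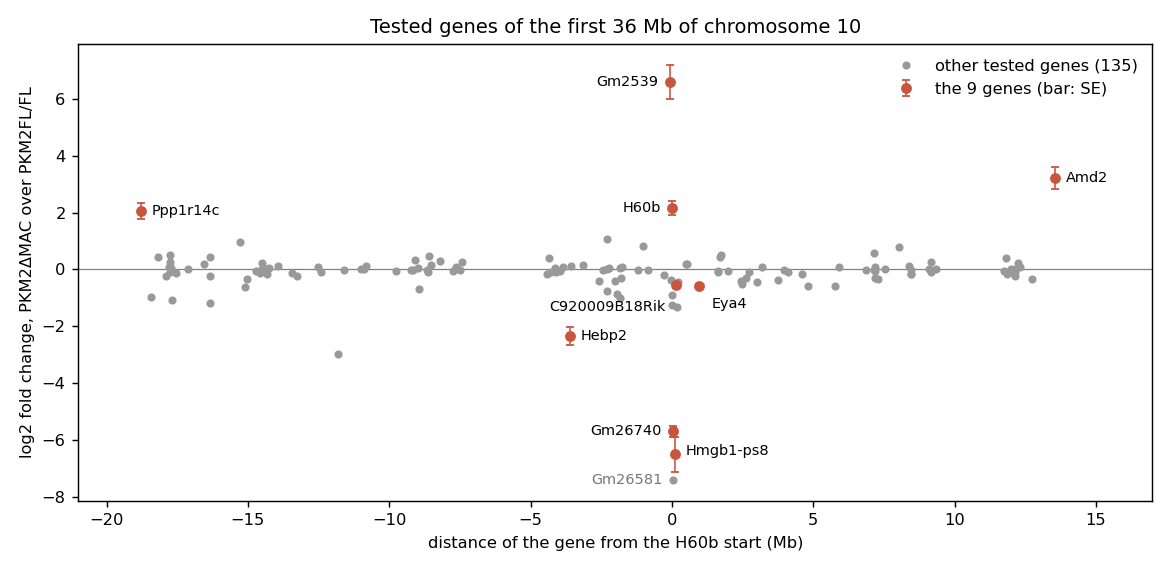
Log2 fold change (PKM2ΔMAC over PKM2FL/FL) of the 144 tested genes of the first 36 Mb of chromosome 10 against their distance in Mb from the H60b start, with the 9 members in red (bar: SE of the fit) and the other 135 genes in gray. The members were chosen for their difference. The gray genes ranged from -7.41 (Gm26581) to 1.07. All 5 lower members, among them C920009B18Rik (-0.56) and Eya4 (-0.57), lie within that range, and the 4 higher members lie above it. Fitted values of genes at 0 counts in 1 genotype, such as Gm26581, depend on the prior count.

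The genes whose log2(CPM + 0.1) followed each member most closely over the 6 libraries were sought among 13070 tested genes with a mean of at least 1 CPM. The 3 nearest of each member had Pearson correlations between 0.988 and 0.999, and with 2 groups of 3 such values mostly record the split by genotype, so they are given as a description. For Gm26740 they were Nxpe1-ps on chromosome 9 (r = 0.999, 17.4 CPM against 0.257 CPM), Lyz2 (0.997) and Vps11 (0.997), and for Hmgb1-ps8 they were Sbsn (0.997), Kif13b (0.992) and Lyz2 (0.991). Gm2539 was followed by Msl3, Efcab7 and Sik2, H60b by BC049352, Trmt112 and Ccr3, and Amd2 by Cd55, Man2c1 and Tnfrsf11a. Ppp1r14c was followed by Lpcat3 and Xkr6, Hebp2 by Septin2, Gga3 and Mpp1, C920009B18Rik by Ccm2, Gigyf1 and Ppp1cc, and Eya4 by Tbrg1, Synpo and Cyp27a1.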

How the data were processed

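RNA-seq of LPS/IFN-γ-primed BMDMs from 3 PKM2ΔMAC and 3 PKM2FL/FL mice was used. The authors deposited raw read counts per gene symbol and TPM values of the same 23935 symbols, and their columns, headed LoxP or PKO with a number, were taken as PKM2FL/FL and PKM2ΔMAC of that mouse number, which no label states outright. The submitters' processing notes name FastQC 0.12.1, Trim Galore 0.6.10, HISAT2 2.2.1, SAMtools 1.19.2, Subread 2.0.6 and build mm10, while the annotation, strand setting and rule for reads with several matches are not given in the sources used here. The gene lengths implied by the deposited TPM lay within 1% of GENCODE M21 exon lengths for 98.6% of 23316 symbols and for all 9 genes, so positions were taken from that annotation (GRCm38).

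The 9 genes, the gene lists and the marker lists were chosen with earlier results of these data known. Of the named genes, all members, paralogs, neighbours, overlapping genes and the 3 nearest in pattern were taken by rule, and Odc1, Sms, Hmox1, Klrk1, Hcst, Tyrobp, Hmgb2, Hmgb3, Gm4895, Itgam, the genes just outside the threshold and near copies were added after their values were seen. Some genes of the lists and of the nearest in pattern are not reported here. Counts were analysed with edgeR 4.0.16 (R 4.3.3) by filterByExpr, TMM and the robust quasi-likelihood test on genotype, with Benjamini-Hochberg adjustment over 16516 genes and a threshold of 0.05. CPM were scaled by the TMM factors (between 0.980 and 1.04). Single genes other than the 9 were compared by two-sided exact permutation tests on log2(CPM + 0.1), whose smallest p is 0.1. The edgeR p-values weigh the genotype difference against the spread between libraries of a genotype, estimated with information from all genes. The permutation p-values rank the observed split of these 6 libraries among all splits. At this depth, counting error limits genes with few counts. Similar transcripts were found with blastn 2.17.0 at an E-value of 1e-10. The functions were tested on simulated counts, where edgeR and, by more, DESeq2 called unchanged genes at a share of calls above the nominal one, so counts of calls may hold more false calls than the threshold states. As alternatives, normalization was switched to upper-quartile or RLE factors, the low-count filter was dropped or set to 10 counts in 3 libraries, estimation was made non-robust, a replicate block was added, single libraries were omitted, and DESeq2 1.42.0 or limma 3.58.1 on log2 of the TPM plus 1 or 0.1 replaced edgeR.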

Additional observations from a re-analysis of the deposited data

How the results depend on the processing

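Of 142 alternative values of the 9 genes, 113 lay within the spread between replicates and 29 moved further, among them those of log2(TPM + 1), which understates low genes. The contrast chose the 9 genes by their adjusted p, and their libraries do not overlap. Their direction when a library was left out was therefore fixed in advance. Leaving out each library in turn gave log2 fold changes between 1.83 and 2.21 for Ppp1r14c, -2.86 and -2.10 for Hebp2, 2.01 and 2.28 for H60b, -5.90 and -5.59 for Gm26740, -0.59 and -0.49 for C920009B18Rik, -0.60 and -0.52 for Eya4, and 2.95 and 3.59 for Amd2. Fitted values of Gm2539 (between 6.07 and 9.26) and Hmgb1-ps8 (between -10.58 and -5.91) depend on the prior count. The number of genes called over all genes was 68, against 280 with DESeq2, 120 with no filter on low counts, 41 and 34 on TPM with pseudocounts 1 and 0.1, 36 on TPM with no filter, and between 22 and 299 when a library was left out. Among the other genes of the first 36 Mb, 5 were called with DESeq2, 3 with no filter, and between 0 and 5 when a library was left out, 3 (Adgb, Ifngr1 and Phactr2) without PKM2ΔMAC replicate 1 and 5 (Enpp1, Gm26581, Gm5421, Raet1e and Tnfaip3) without PKM2ΔMAC replicate 2. Of the related genes, DESeq2 called 1, and 3 (Raet1e, Eya2 and Ppp1r14a) were called without PKM2ΔMAC replicate 2, with between 0 and 3 over the libraries left out.

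On TPM with pseudocounts 1 and 0.1 and with pseudocount 1 and no filter, small differences took the opposite sign: Ulbp1 (0.0213, 0.0225 and 0.0213), Eya1 (0.0241, 0.0270 and 0.0241), Ppp1r14b (0.0232, 0.0234 and 0.0232) and Rps12 (0.0272 in all 3). There the median of all genes was shifted by between 0.0601 and 0.0661. With a library left out, Raet1d ranged between -0.72 and 0.0415, Ulbp1 between -0.16 and 0.0541, Eya1 between -0.16 and 0.0824, and Nhsl1 between -0.14 and 0.25. Pkm was not called on TPM (adjusted p between 0.112 and 0.183). The cause was not tested.

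The labels give both groups the numbers 1 to 3. Deviations of same-numbered libraries correlated at 0.156, 0.254 and 0.0395, so the numbers were not taken to pair the mice, and PKM2ΔMAC replicate 3 correlated best with PKM2FL/FL replicate 1 (0.136). With the replicate block 82 genes were called over all genes, 0 of the related genes and 0 of the other genes of the region.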
